A study of Rattus norvegicus with 12 samples.

Results

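Chemokine and chemokine receptor genes were described across the cervix of prepartum and nonpregnant rats, with and without macrophages (Mφs). Members were taken by name: every probe of the array whose gene name begins with Ccl, Cxcl, Cx3cl, Xcl, Ccr, Cxcr, Cx3cr or Xcr followed by a digit. These were 56 of the 30367 probes of the array and 51 of its 26612 genes, of which 33 encode ligands and 18 encode receptors. Cxcr7 of the array files is Ackr3 in RefSeq and Ccl21b is Ccl21, and the RefSeq names are used here. The ligands Pf4 and Ppbp do not carry such names and were kept as neighbours of the family, not as members.

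All 12 rats were adult female Sprague Dawley rats, either on day 21 postbreeding, the day before expected birth (D21), or nonpregnant and in proestrus (NP). Each rat was perfused with saline, its cervix was minced and dispersed with collagenase in all 4 groups, and each array held the RNA of 1 rat, with 3 rats in a group. Whole preparations (D21 rats 5, 6 and 7, NP rats 8, 9 and 10) were frozen after dispersal. Mφ-depleted preparations came from other animals (D21 rats 1, 2 and 4, NP rats 5, 6 and 7) and went through an added incubation with the ED1 antibody and magnetic beads before freezing, so that removal of the ED1 cells and the added handling cannot be told apart. A rat number recurs only between the D21 and NP rats, where it marks different animals, and no rat gave both a whole and a depleted preparation.

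Chemokines are small secreted proteins that draw leukocytes along a gradient, and they act through membrane receptors coupled to inhibitory G proteins. CC ligands mainly attract monocytes, eosinophils and lymphocytes, whereas the CXC ligands include neutrophil attractants, interferon-induced T cell attractants and homeostatic factors such as Cxcl12. In the cervix near term they are studied for the recruitment of leukocytes to the remodeling stroma.

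Each level is a log2 signal from which the array's own 75th percentile has been taken, so that 0 is that percentile. Levels of different genes rest on different probes and are not compared with each other. Of the 51 members, 15 were rated well above background by the scanner software on all 12 arrays, 27 on some arrays and 9 on no array. The last were Ccl25, Ccl26, Ccr10, Ccr1l1, Ccr4, Ccr7, Ccr8, Cxcl3 and Xcr1, for which no level was measured here. Testing required that all 3 rats of 1 of the groups compared had the gene well above background. This let 28 members be tested in at least 1 comparison, and 18 of them were called with an adjusted p below 0.05. A member that entered only through the group where it was bright was favoured by the filter to differ, and the counts below carry no weight beyond the single genes. The lowest log2 signal rated well above background ranged from -5.35 to -2.93 between arrays, which limits what could be seen of dim receptors. Fewer cells of a type and less RNA per cell cannot be told apart in any of these comparisons.

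**Figure D1:**
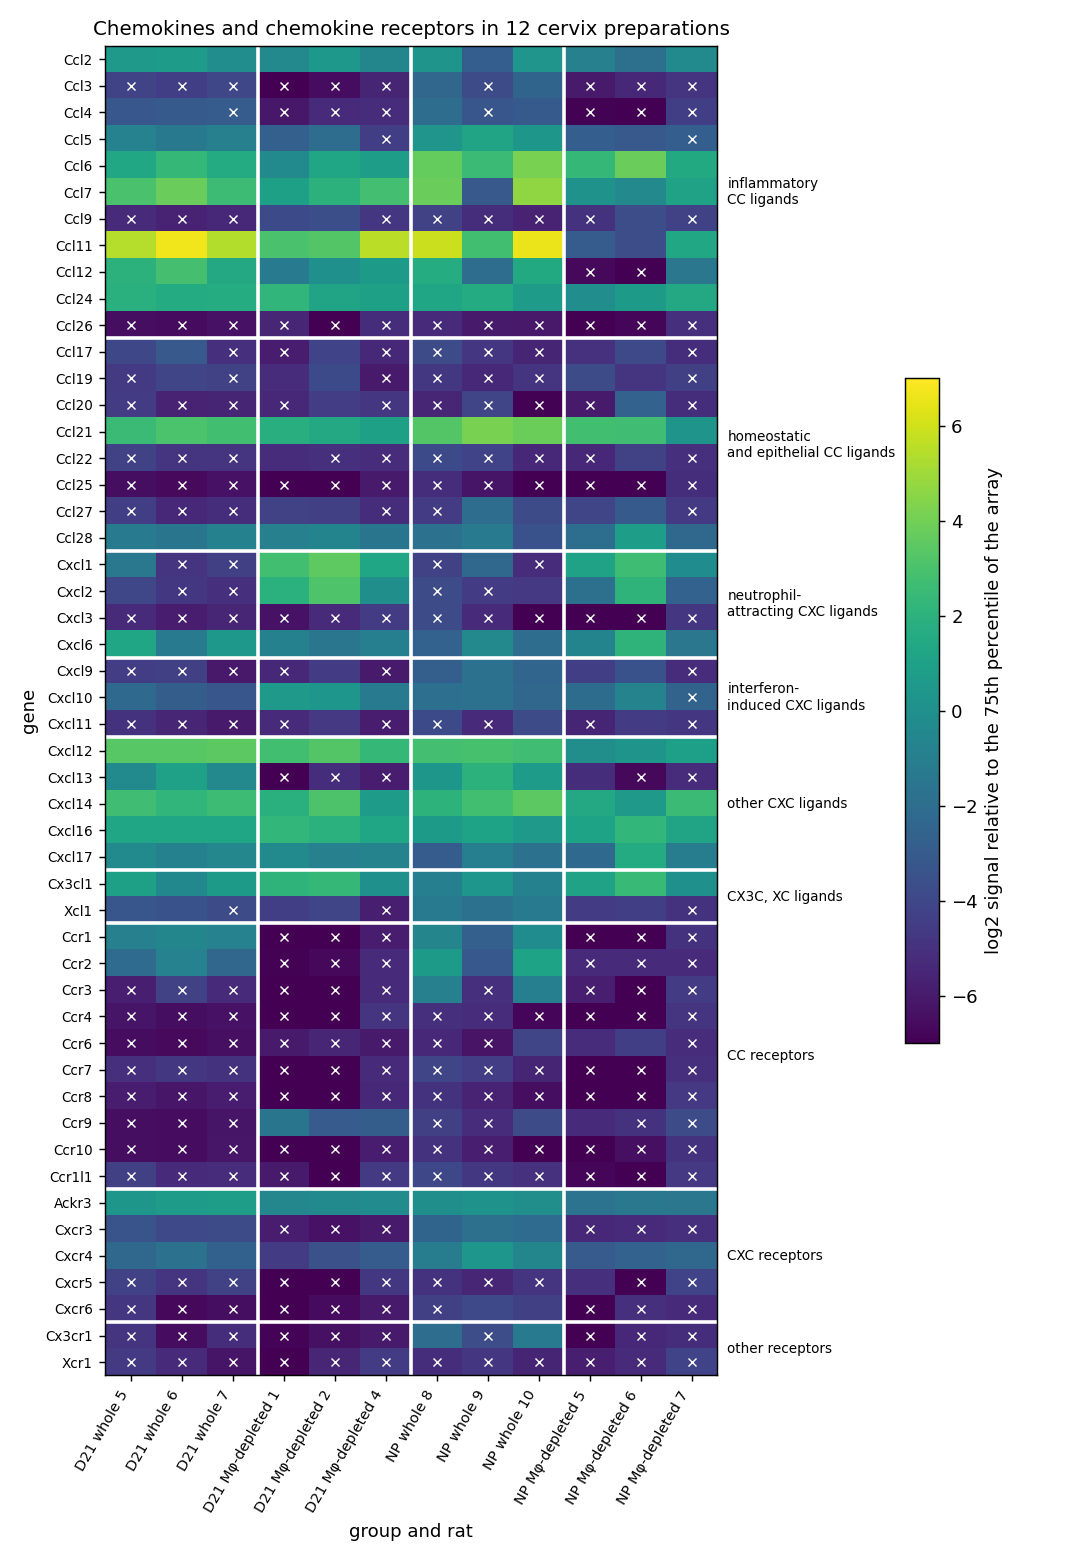
Log2 signal of 50 members (rows, grouped by role) on the 12 arrays (columns, 3 rats for each of 4 groups), with the 75th percentile of each array at 0. A white cross marks a value not well above background. The 9 members crossed on every array are seen mostly among the CC receptors, and Ccr1, Ccr2 and Cxcr3 are crossed on all depleted arrays and on no whole array.

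The probes of the family lie in a few neighbourhoods of the genome. On the rn4 build, 12 members are on chromosome 10, 12 on chromosome 8 and 8 on chromosome 14. The receptors Ccr9, Cxcr6, Xcr1, Ccr1, Ccr1l1, Ccr3 and Ccr2 span 352 kb (chr8:128541908-128893864). The monocyte and eosinophil attractants Ccl2, Ccl7, Ccl11 and Ccl12 span 64.6 kb (chr10:70257919-70322506), and the neutrophil attractants Cxcl2, Cxcl1, Cxcl3 and Cxcl6 span 149 kb (chr14:18677165-18825755). Neighbours in the same stretch did not move together in all cases, as the opposite changes of Ccr9 and of Ccr1 and Ccr2 below show.

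Facts of the arrays that touch all results are these. The share of probes well above background lay between 44.9% and 61.8%, and the log2 values of arrays correlated at 0.906 to 0.987 within groups and 0.814 to 0.960 between groups. All 6 whole arrays and the arrays of depleted D21 rat 4 and NP rat 7 were scanned on the same day, and the other 4 depleted arrays on 2 other days. Of 12 Mφ markers, 11 were higher in whole than in depleted D21 preparations and 9 of the 10 tested were higher in NP. Their summed log2 level was 6.17 to 6.41 in whole D21, 2.35 to 2.65 in depleted D21, 6.11 to 6.78 in whole NP and 1.08 to 1.27 in depleted NP preparations. Adgre1, Mrc1 and Mpeg1 were not well above background on any depleted array. Cd68, which encodes the ED1 antigen itself, was well above background on every depleted array and did not differ detectably (log2 difference -0.15, adjusted p = 0.88 in D21, and 0.54, adjusted p = 0.53 in NP). Mast cell markers were also higher in whole preparations (5 of 6 tested in D21, 4 of 5 in NP, where Kit was lower), as were neutrophil markers (2 of 4 and 3 of 4) and T and NK cell markers (2 of 5 and 2 of 4). Epithelial markers were lower in whole preparations (4 of 9 in D21 and 7 of 9 in NP), and of the endothelial markers 1 of 5 was higher in D21 and 1 of 4 was higher and 1 lower in NP. The part of these cells in the results below was not tested.

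Ccr1 and Ccr2, receptors for inflammatory CC ligands, were well above background on every whole array and on no depleted array, in D21 and in NP rats, and both entered the test only through the whole preparations. Of the 11 CC receptors 4 could be tested in D21 and 3 in NP. In D21 rats 26 members were tested between whole and depleted preparations, and 8 were higher in whole (11.9% of all genes tested were) and 4 were lower (10.5% of all genes). In NP rats 27 members were tested, 14 were higher in whole (17% of all genes) and 2 were lower (15.8% of all genes). Both comparisons call a large part of the array, since 22.4% of all genes tested in D21 and 32.8% in NP differed in either direction. Whole and depleted values did not overlap for 44.5% of all genes tested in D21 and 47.1% in NP. At the study's own threshold, an unadjusted p below 0.01 and a 2-fold change, limma called 17.7% of all genes tested between whole and depleted D21, 24.4% in NP, 8.47% between the whole groups, 7.52% between the depleted groups and 7.44% in the interaction. Members higher in whole preparations in both included Ackr3, Ccl5, Ccr1, Ccr2, Cxcl13, Cxcr3 and Cxcr4, and Cxcl1 and Cxcl2 were lower in both. Cxcr3, Cxcl13 and Ccl5 likewise entered both comparisons only through the whole preparations, as Ccl12, Cxcl9 and Xcl1 did in NP. Cxcl1 and Cxcl2 entered both only through the depleted preparations, as Ccr9 did in D21. The filter thus favoured a difference in these genes, and their p-values and the counts carry that selection.

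Ccr1, a receptor for Ccl5 and related ligands on monocytes and Mφs, had log2 levels of -0.90, -0.59 and -0.79 in whole D21 preparations, and read -7.58, -7.18 and -5.90 in depleted ones, none of them well above background. In NP rats it had -0.62, -2.71 and -0.17 in whole preparations, and -7.53, -7.16 and -4.96 in depleted ones, again below the software's limit. The whole and depleted groups did not overlap, with rat 9 the lowest of the whole NP preparations. Taken against the mean over the 3 depleted arrays of the lowest signal well above background on each, Ccr1 was at least 15.4-fold higher in whole D21 (adjusted p = 0.00053) and at least 9.52-fold higher in whole NP preparations (adjusted p = 0.00029).

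Ccr2 binds Ccl2, Ccl7 and Ccl12 and is the receptor by which inflammatory monocytes enter tissue. Its log2 levels were -2.09, -0.81 and -2.40 in whole D21 and 0.65, -3.17 and 1.12 in whole NP preparations. On the depleted arrays Ccr2 read -6.90, -6.71 and -5.36 (D21) and -5.30, -5.33 and -5.25 (NP), and none of these was well above background. The gene was at least 7.62-fold higher in whole D21 (adjusted p = 0.0079) and at least 15.4-fold higher in whole NP preparations (adjusted p = 0.0023).

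Among the CXC receptors, Cxcr3 binds the interferon-induced ligands Cxcl9, Cxcl10 and Cxcl11 and is carried mainly by T and NK cells. It had log2 levels of -3.34, -3.89 and -3.78 in whole D21 and -2.50, -1.83 and -2.11 in whole NP preparations, and it was not well above background on any depleted array (-6.30 to -5.92 in D21, -5.46 to -5.14 in NP). It was at least 2.04-fold higher in whole D21 (adjusted p = 0.00018) and at least 4.83-fold higher in whole NP preparations (adjusted p = 6.0e-06).

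Cxcr4 and Ackr3 both bind Cxcl12, the former as a signalling receptor and the latter as an atypical receptor that takes the ligand up. Cxcr4 was well above background on every array, with -2.30, -1.74 and -2.65 in whole D21, -1.13, 0.33 and -0.57 in whole NP, -4.56, -3.55 and -2.92 in depleted D21 and -2.99, -2.58 and -2.34 in depleted NP preparations. It was 2.73-fold higher in whole than depleted D21 (adjusted p = 0.044) and 4.53-fold higher in NP (adjusted p = 0.0041). The former lies close to the limit and was lost under 15 of 23 alternative settings. Ackr3 had 0.43, 0.66 and 0.77 in whole D21, -0.51, -0.37 and -0.23 in depleted D21, -0.02, 0.17 and -0.11 in whole NP and -1.69, -1.41 and -1.42 in depleted NP preparations. The 4 groups of Ackr3 did not overlap, and the gene was 1.99-fold higher in whole D21 (adjusted p = 0.0084) and 2.88-fold higher in whole NP preparations (adjusted p = 0.0002). Its D21 call was lost under 7 of 23 alternative settings, among them slide or scan day as a block, and its NP call under 0.

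The ligand with the largest measured difference in D21 among members higher in whole preparations was Cxcl13, which attracts B cells through Cxcr5. Its log2 levels were -0.29, 1.02 and -0.39 in whole D21 and 0.43, 1.97 and 0.68 in whole NP preparations. Depleted preparations read -7.17, -5.17 and -5.95 in D21, none well above background, and -5.18, -6.71 and -5.24 in NP, with 1 well above background. Cxcl13 was at least 28.1-fold higher in whole D21 (adjusted p = 0.00015), and the log2 difference was 6.74 ± 0.63 (adjusted p = 1.9e-05) in NP, a size that includes 2 depleted readings not well above background. Its receptor Cxcr5 passed the software's limit on 0 of the 6 whole arrays. Markers of B cells summed to between -3.78 and -2.76 on whole and between -4.73 and -3.07 on depleted arrays, with at most 1 of the 3 on the array well above background.

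Ccl5, a ligand of Ccr1 and Ccr3 made by T cells, NK cells and Mφs, had log2 levels of -0.80, -1.33 and -0.93 in whole D21 and 0.31, 1.15 and 0.44 in whole NP preparations. Depleted preparations gave -2.72, -2.01 and -4.38 (D21) and -2.83, -3.11 and -2.81 (NP), with 2 of 3 well above background in each. The log2 difference was 2.02 ± 0.49 (adjusted p = 0.018) in D21, lost without D21 rat 5 or 7 of the whole group, and 3.55 ± 0.49 (adjusted p = 0.00028) in NP. Xcl1, the ligand of Xcr1 and a product of NK and CD8 T cells, could be tested between whole and depleted only in NP, where it had -1.15, -1.73 and -1.26 in whole against -4.52, -4.39 and -4.97 in depleted preparations (log2 difference 3.24 ± 0.40, adjusted p = 0.00013).

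**Figure D2:**
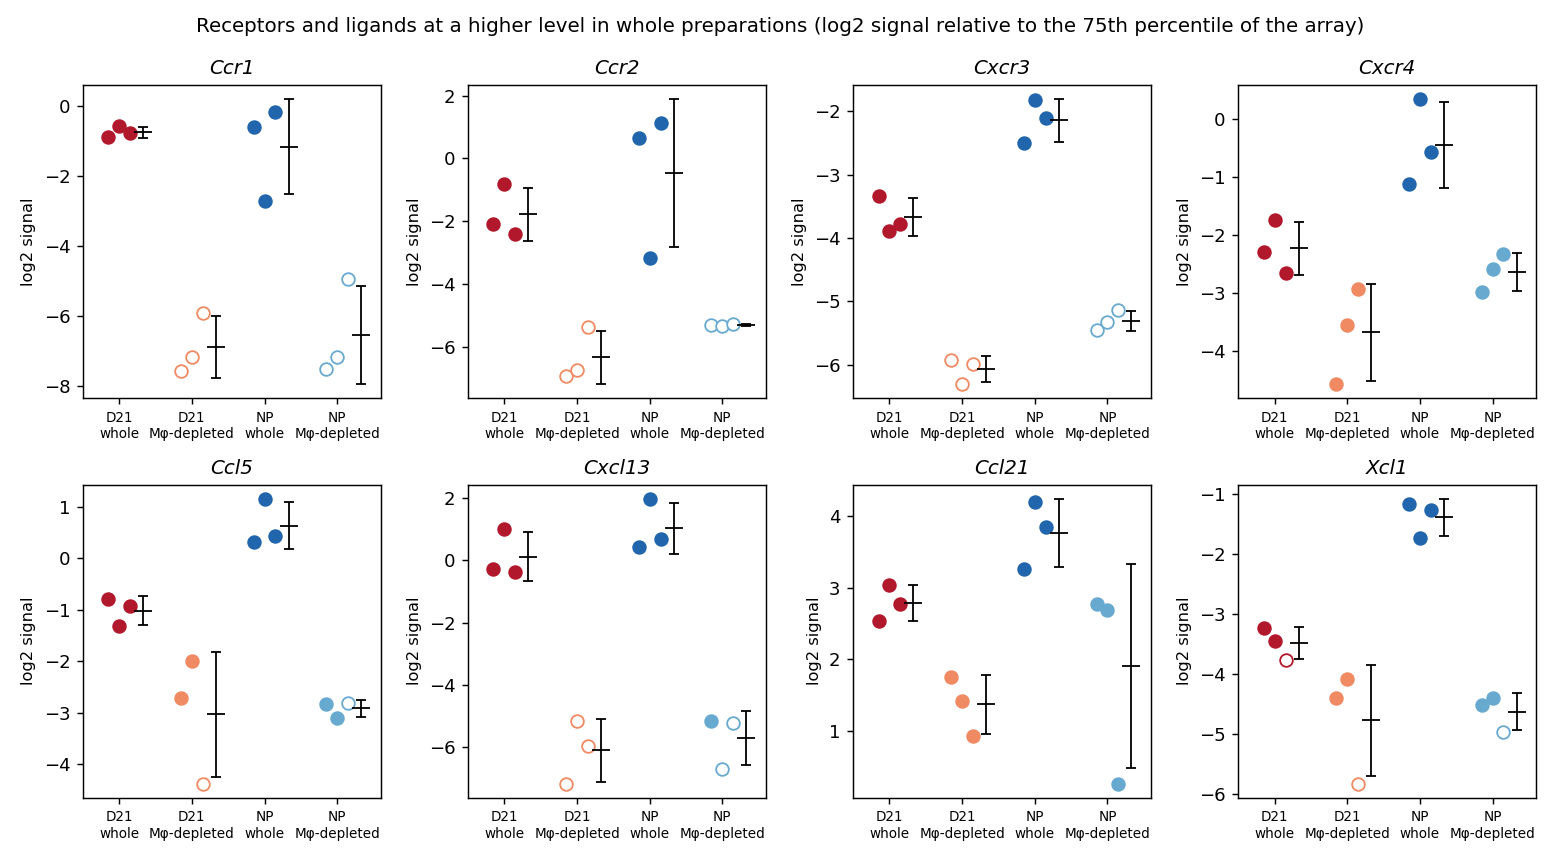
Log2 signal of 4 receptors and 4 ligands in each rat of the 4 groups, with each array's 75th percentile at 0 and the mean and SD (n = 3) at the right of each group in black. Open circles were not well above background. Whole preparations lie above the depleted ones of the same reproductive state in every panel, and NP rat 9 is the low whole value of Ccr1 and Ccr2.

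A further set of members was higher in whole preparations in the NP comparison. Ccl11 (eotaxin, an eosinophil attractant through Ccr3) had log2 levels of 5.87, 2.78 and 6.61 in whole and -2.90, -3.70 and 1.39 in depleted NP preparations, a log2 difference of 6.82 ± 1.31 (adjusted p = 0.0023). Ccl12, a monocyte attractant, had 1.69, -1.98 and 1.52 in whole and -6.70, -6.99 and -1.45 in depleted NP preparations, with only the last of these well above background, and the groups overlapped through rat 9 (log2 difference 5.46 ± 1.36, adjusted p = 0.01). Within the shared scan day, the log2 difference between the 3 whole arrays and depleted rat 7 was 3.70 for Ccl11 and 1.86 for Ccl12. In D21 rats Ccl11 had 5.42, 6.72 and 5.41 in whole against 2.97, 3.25 and 5.55 in depleted preparations, and Ccl12 had 2.01, 2.86 and 1.43 against -1.15, 0.03 and 0.64, neither of which passed the test (adjusted p = 0.29 and 0.24).

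Cxcl12, the stromal ligand of Cxcr4, had log2 levels of 2.81, 2.91 and 2.70 in whole and -0.09, 0.23 and 0.92 in depleted NP preparations (5.47-fold, adjusted p = 0.00011). Whole and depleted D21 preparations, at 3.37, 3.37 and 3.45 against 2.79, 3.25 and 2.32, differed by 0.61 ± 0.30 (adjusted p = 0.15). Ccl21, which guides dendritic cells and T cells to lymphatics through Ccr7, had 3.26, 4.19 and 3.84 in whole and 2.77, 2.69 and 0.27 in depleted NP preparations (3.61-fold, adjusted p = 0.028), and the call was lost without NP rat 9 or 10 of the whole group. Cxcl9 had -2.75, -1.71 and -2.45 in whole and -4.40, -3.47 and -5.22 in depleted NP preparations, with 2 of the latter well above background (log2 difference 2.06 ± 0.56, adjusted p = 0.016), a call lost without whole NP rat 9 or depleted NP rat 7. In the same comparisons 6 of 6 genes of the fibroblast list (Col1a1, Dcn and others) were higher in whole than depleted NP preparations and 2 of 6 in D21. Its summed log2 level was 8.74 to 9.38 on the 6 whole arrays, 8.30 to 8.87 in depleted D21 and 4.05 to 5.89 in depleted NP preparations. Smooth muscle genes were higher too (5 of 5 in NP, 4 of 5 in D21). Their part in the result was not tested.

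Of the 4 neutrophil attractants, Cxcl1 and Cxcl2 ran the other way and were higher after depletion. Cxcl1 and Cxcl2, which act on neutrophils and are induced through NF-kB, and Cxcl10, an interferon-induced ligand of Cxcr3, carry the result, so the 250 bases before their RefSeq transcription starts are shown (GRCr8 build, 5′ to 3′ on the strand of the gene). Capitals mark matches, on either strand, to GGGA, any 3 bases and TCC (NF-kB), TGANTCA (AP-1), GAGGAAG (PU.1) and GAAA, any 2 bases and GAAA (interferon response element), and matches on both strands that overlap run together. Cxcl1 lies at chr14:17479322-17479571 and Cxcl2 at chr14:17467256-17467505, both on the minus strand, and Cxcl10 at chr14:15988816-15989065 on the plus strand.
Cxcl1: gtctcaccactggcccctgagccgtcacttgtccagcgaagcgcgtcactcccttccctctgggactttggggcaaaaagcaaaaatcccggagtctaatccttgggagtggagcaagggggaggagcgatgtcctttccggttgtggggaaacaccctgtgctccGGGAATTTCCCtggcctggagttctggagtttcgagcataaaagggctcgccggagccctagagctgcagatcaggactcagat
Cxcl2: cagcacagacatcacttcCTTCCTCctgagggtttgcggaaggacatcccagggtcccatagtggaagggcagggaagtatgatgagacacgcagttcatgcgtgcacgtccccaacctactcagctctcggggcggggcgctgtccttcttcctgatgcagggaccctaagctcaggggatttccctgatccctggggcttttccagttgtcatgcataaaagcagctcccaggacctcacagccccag
Cxcl10: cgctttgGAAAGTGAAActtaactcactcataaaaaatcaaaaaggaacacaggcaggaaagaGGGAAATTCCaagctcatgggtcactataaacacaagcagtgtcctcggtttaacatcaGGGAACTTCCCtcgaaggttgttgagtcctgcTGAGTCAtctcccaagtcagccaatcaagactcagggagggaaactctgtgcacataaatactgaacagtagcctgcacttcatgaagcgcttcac
Cxcl1 holds the NF-kB letters from 84 to 74 bases before the start, and Cxcl10 from 187 to 178 and from 128 to 118 bases before it. Cxcl10 also has the AP-1 letters 96 to 90 and the interferon letters 243 to 234 bases before its start. Of the 4 patterns searched, Cxcl2 matches only the PU.1 letters, 232 to 226 bases before its start. Its window also holds the stretch gggatttccc, which differs from the NF-kB letters at a single base. A window without a match is therefore not shown to lack a site. RefSeq windows were found for 38 of the 51 members. The NF-kB letters stood in 8 of them (21.1%; Ccl22, Ccl24, Ccl7, Ccr3, Cxcl1, Cxcl10, Cxcl11 and Cxcl6) and in 3.38% of all 33469 windows of this length. AP-1 letters stood in 18.4% of the member windows against 6.34% of all, PU.1 letters in 26.3% against 10.2%, and interferon letters in 5.26% against 3.41%. Windows of Ccr1, Ccr2, Cxcl13 and Cxcl12 were among the 19 with none of the 4. A match is a stretch of letters and no measured binding.

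Cxcl1 had log2 levels of 2.77, 3.52 and 1.28 in depleted D21 and 1.05, 2.68 and -0.21 in depleted NP preparations. Whole D21 preparations read -1.37, -4.89 and -4.36 and whole NP preparations -4.29, -2.30 and -5.21, with 1 value of each group well above background. The log2 difference was -6.06 ± 1.06 (adjusted p = 0.0037) in D21 and -5.10 ± 1.06 (adjusted p = 0.0037) in NP. These sizes include whole readings not well above background, and no whole value reached a depleted value of the same state. Within the shared scan day the log2 difference was -4.82 in D21 and -3.72 in NP, where 1 depleted array stands against 3 whole ones.

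Cxcl2 had 1.94, 3.15 and -0.01 in depleted D21 and -1.84, 2.12 and -2.59 in depleted NP preparations, so that rat 6 stood far above the other NP rats. Whole D21 preparations read -4.02, -4.76 and -5.05 and whole NP preparations -3.76, -4.52 and -4.68, with 1 of 3 well above background in each. The whole minus depleted log2 difference was -6.31 ± 1.07 (adjusted p = 0.0033) in D21 and -3.55 ± 1.07 (adjusted p = 0.026) in NP. These sizes include whole readings not well above background, and no whole value reached a depleted one. The NP call was lost under 10 of 22 alternative settings, which include leaving out depleted NP rat 6 or any 1 of the whole NP rats. Blocking on slide or on scan day lost the NP calls of both Cxcl1 and Cxcl2.

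Cxcl10 had -2.24, -2.86 and -3.25 in whole and 0.57, 0.33 and -1.21 in depleted D21 preparations, a 6.41-fold lower level in whole (adjusted p = 0.0073). The call was lost under 4 of 22 alternative settings: slide or scan day as a block and both forms of the methods' t-test. In NP rats its levels were -1.90, -1.79 and -2.39 in whole and -2.06, -0.74 and -2.54 in depleted preparations, and they overlapped (log2 difference -0.25 ± 0.53, adjusted p = 0.75). The difference between the D21 and NP changes did not pass the test (-2.43 ± 0.76, adjusted p = 0.12). Cxcl6, a further neutrophil attractant, was well above background on every array and was called in no comparison. Immediate-early genes, which respond to handling of cells, changed in the same direction as Cxcl1 and Cxcl2 in both states and as Cxcl10 in D21: 8 of 9 tested in D21 and 7 of 8 in NP were lower in whole preparations, with a summed log2 level of 3.48 to 4.76 on whole and 5.89 to 6.93 on depleted arrays. The part of this in the result was not tested.

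Ccr9, the receptor for Ccl25 and known for homing of T cells to the gut, was the receptor that was higher after depletion. Depleted D21 preparations had log2 levels of -1.58, -2.95 and -2.89, all well above background. Whole D21 preparations read -6.50, -6.52 and -6.20, whole NP preparations -4.34, -5.22 and -3.80 and depleted NP preparations -5.28, -4.95 and -3.77, with 0, 1 and 1 of 3 well above background. Ccr9 was therefore at least 3.48-fold lower in whole than in depleted D21 preparations (adjusted p = 0.00057). It was not tested in NP, since no NP group passed the filter, and its ligand Ccl25 passed the software's limit on 0 of 12 arrays.

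**Figure D3:**
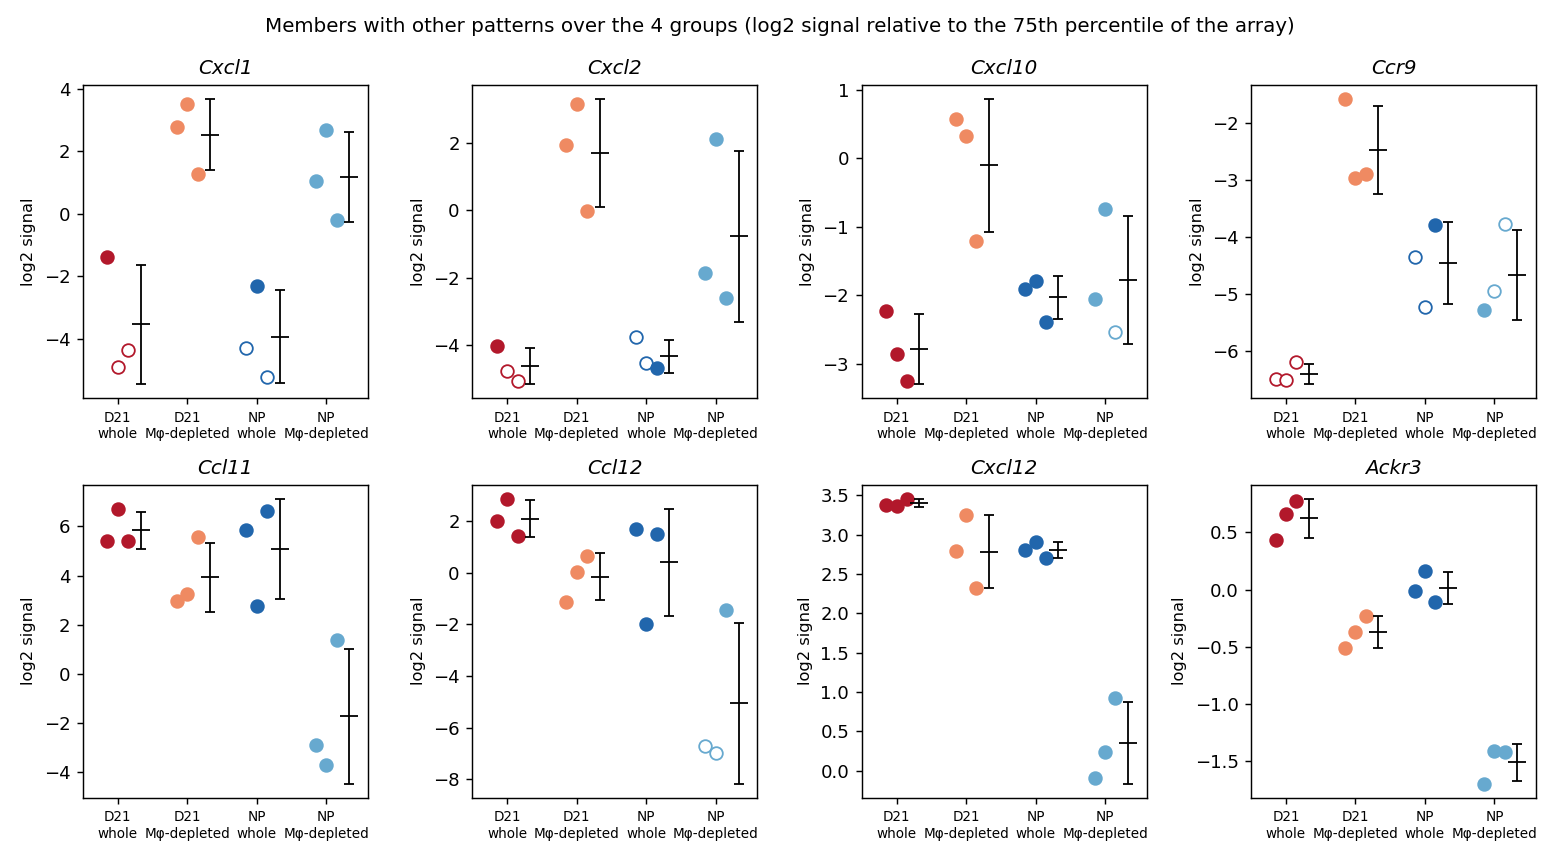
Log2 signal of 8 members with other patterns in each rat of the 4 groups, with each array's 75th percentile at 0 and the mean and SD (n = 3) in black at the right of each group. Open circles were not well above background. Cxcl1 and Cxcl2 lie higher in depleted preparations in both states, Ccr9 is bright in depleted D21 preparations alone, and Ccl11, Ccl12 and Cxcl12 are lowest in depleted NP preparations.

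The calls between whole and depleted preparations depend on how the slides are treated. Whole and depleted D21 arrays share no slide, and with slide as a block only the call of Ccr9 remained of the 12 D21 calls and 11 of the 16 NP calls. With normexp background correction the calls of Cxcl1 and Cxcl10 remained in D21. All 12 D21 calls and all 16 NP calls kept their direction between arrays scanned on the same day, 3 whole against 1 depleted in each state. Apart from Ccl12 in NP, whole and depleted values of these calls did not overlap. Their direction could therefore not have turned in any subset of the arrays, and this is no check of scan day.

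An interaction term compared the depletion change of D21 rats with that of NP rats for 28 members. At an adjusted p below 0.05, 0 of them were higher and 2 lower (0.439% and 1.96% of all genes tested, 2.4% in either direction), and 6 had an unadjusted p below 0.05. For Ccr9 the whole minus depleted difference was 4.14 log2 units lower in D21 than in NP (-4.14 ± 0.70, adjusted p = 0.013). The gene entered only through depleted D21 preparations, and with 0 of 3 whole D21, 1 of 3 whole NP and 1 of 3 depleted NP arrays well above background the size of this difference rests on readings at background. For Cxcl12 it was lower by 1.84 (-1.84 ± 0.42, adjusted p = 0.048), and the second probe of this gene gave -2.16 (adjusted p = 0.07). The call of Cxcl12 was lost under 14 of 21 alternative settings. Ccl11 and Ccl12, called in NP and not in D21, did not pass the test of the difference (-4.90 ± 1.86, adjusted p = 0.19, and -3.20 ± 1.93, adjusted p = 0.39). The fibroblast list again moved with Cxcl12, with 5 of its 6 genes lower in the interaction. Of the smooth muscle genes 3 of 5 were lower in the interaction too, and the part of either list was not tested.

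**Figure D4:**
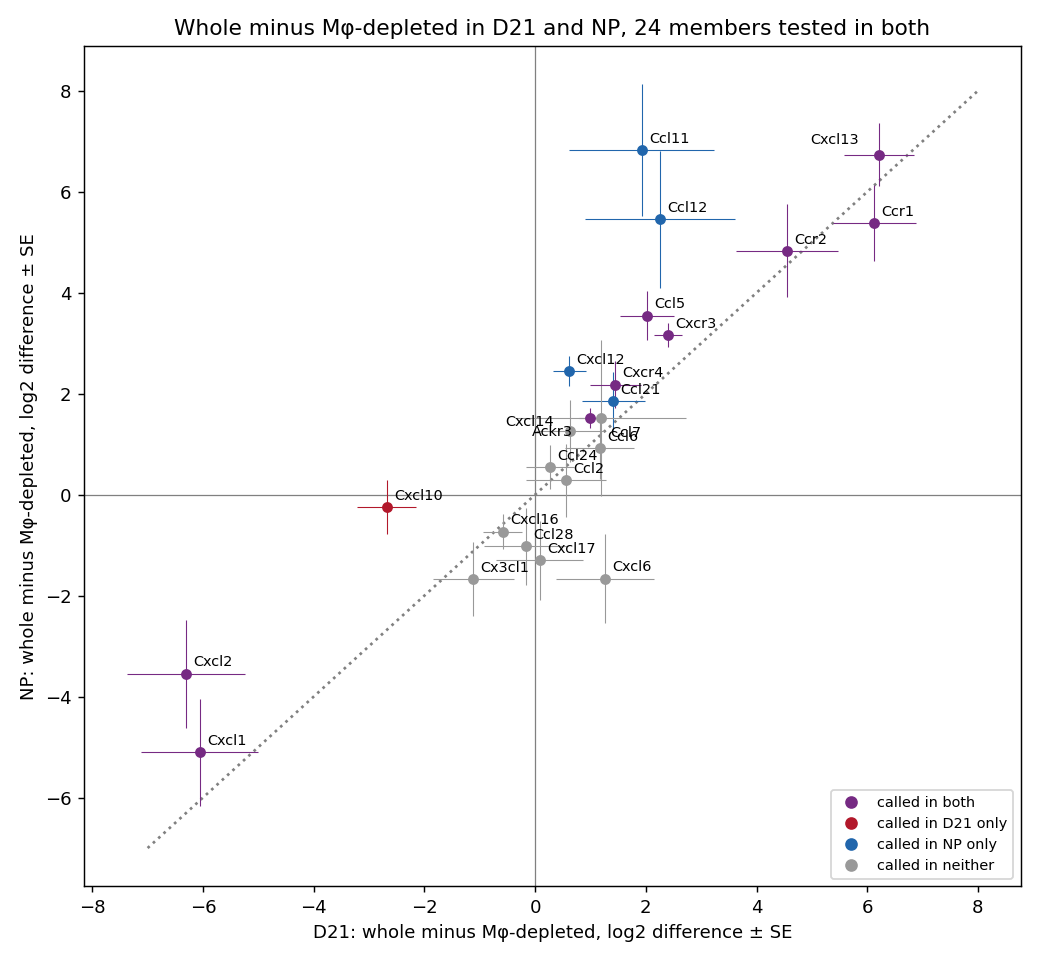
Whole minus Mφ-depleted log2 difference of 24 members tested in both states, D21 on the x axis and NP on the y axis, with SE bars from limma. The dotted line marks equal differences. Cxcl13, Ccr1 and Ccr2 lie at the upper right, Cxcl1 and Cxcl2 at the lower left, and Ccl11 and Ccl12 lie above the line.

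Whole cervix of D21 and NP rats was compared to see which members differ before birth. Of 25 members tested, 0 were higher in D21 (3.93% of all genes tested were) and 4 were lower (1.93% of all genes, and 5.87% differed in either direction), while 8 had an unadjusted p below 0.05. The 4 were Cxcr3, 1 of its ligands (Cxcl9), Xcl1 and Cxcr4. Cxcl9 and Xcl1 entered this test only through whole NP preparations, where they were brighter, so the filter favoured these calls and the count carries that selection.

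Cxcr3, with the levels given above, was 2.88-fold lower in whole D21 than in whole NP preparations (log2 difference -1.52 ± 0.25, adjusted p = 0.0088), and the groups did not overlap. Cxcl9 read -4.43, -4.35 and -6.04 in whole D21 preparations, none well above background, against -2.75, -1.71 and -2.45 in NP, and it was at least 3.85-fold lower (adjusted p = 0.024), a call lost without any 1 of the whole NP rats and without D21 rat 6 or 7. Cxcl10 (log2 difference -0.75, adjusted p = 0.43) was not called, and Cxcl11 was too dim to test.

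Xcl1 had -3.23, -3.45 and -3.76 in D21 (2 of 3 well above background) and -1.15, -1.73 and -1.26 in NP, a 4.28-fold lower level (adjusted p = 0.016). The call was lost without NP rat 8 or 10 or D21 rat 6 or 7. Cxcr4 was 3.42-fold lower in D21 (adjusted p = 0.046), a call lost under 15 of 23 alternative settings. Ccl5 was 3.14-fold lower without passing the limit (adjusted p = 0.075), and Ccl6 (3.32-fold, adjusted p = 0.13) did not pass either, with no overlap of the groups for these. Between whole groups 44.3% of all genes tested did not overlap. The summed log2 level of T and NK cell markers was -0.23 to 0.06 in whole D21 and 0.73 to 1.06 in whole NP preparations. Of the 5 that could be tested Nkg7 was lower and Cd3g higher in D21, so the list did not move in 1 direction. The part of these cells was not tested. Epithelial markers differed too, with 6 of 9 higher and 0 lower in whole D21 preparations (median log2 difference 1.48 against -0.08 over all genes tested), and their part was not tested either.

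Ccr1, Cxcl13 and Ccr2, which were below or near background after depletion, did not pass this test. Ccr1 had a log2 difference of 0.41 (95% confidence interval -1.25 to 2.06), Cxcl13 of -0.91 (-2.29 to 0.46) and Ccr2 of -1.30 (-3.33 to 0.72), intervals that leave room for changes over 2-fold in size. The Mφ list had 1 of 12 genes higher and 0 lower in D21. All 6 whole arrays were scanned on the same day, and slide was shared only in part, since NP rat 10 alone lay on the slide of the D21 rats. All 4 calls kept their direction against this rat alone, which had to be so because their groups did not overlap. With slide as a block 0 of the 4 calls remained, with normexp background correction 0, with quantile normalization 1 (Cxcr4) and without D21 rat 7 of the whole group 0.

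**Figure D5:**
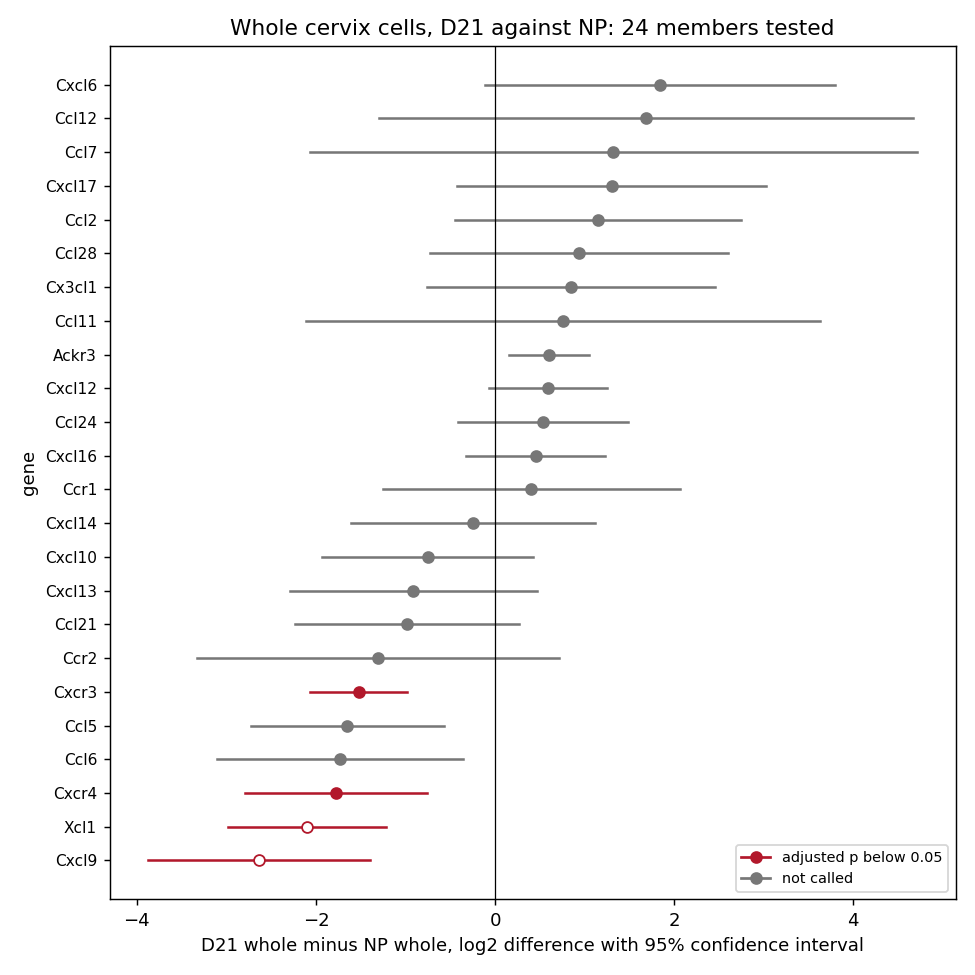
D21 minus NP log2 difference in whole cervix preparations for 24 of the members tested, with 95% confidence intervals from limma, ordered by size. Open circles mark genes not well above background on all 3 arrays of both groups. The 4 called members are among the 6 lowest differences, and intervals of Ccl7, Ccl11 and Ccl12 are wide.

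A single rat widened several of these intervals. NP rat 9 lay over 1 log2 unit below both other whole NP rats in 10 of 31 members (5.68% of all genes were so low): Ccl2, Ccl3, Ccl6, Ccl7, Ccl11, Ccl12, Ccr1, Ccr2, Ccr3 and Cx3cr1. It lay over 1 unit above both in Ccl27, Cx3cl1, Cxcl13 and Cxcl6 (4.5% of all genes). Ccl7, a monocyte attractant, was at -3.10 in this rat and at 3.82 and 4.68 in the others, against 2.99, 3.79 and 2.59 in whole D21 preparations. Ccr3, the eotaxin receptor, read -5.05 in rat 9, not well above background, and -0.88 and -0.97 in rats 8 and 10, whereas no D21 or depleted array had it well above background. Cx3cr1, the fractalkine receptor of monocytes and Mφs, read -3.71, not well above background, in rat 9 and -2.02 and -1.17 in rats 8 and 10, and it too was not well above background elsewhere. The Mφ list of rat 9 summed to 6.11, the lowest of the whole arrays, and its epithelial list to 6.94, the lowest of all arrays. Rat 9 was singled out for low values of these very genes, so what leaving it out does to them is a description. Without it Ccr2 had a D21 minus NP log2 difference of -2.66 (adjusted p = 0.016) between whole preparations, and Ccr3 and Cx3cr1 entered the test only through rats 8 and 10, against 0 of 3 D21 arrays well above background. Cxcl9 (adjusted p = 0.053) and Cxcr4 (adjusted p = 0.11) were no longer called, and Ccl11 (-0.39) and Ccr1 (-0.36) turned their direction without passing the test. The whole against depleted calls of Ccl11, Ccl12, Ccr1 and Ccr2 in NP rats were kept without rat 9, with log2 differences of 7.98, 6.65, 6.15 and 6.18.

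Depleted preparations of D21 and NP rats were compared last. Of 20 members tested 4 were higher in D21 (3.62% of all genes tested) and 0 lower (0.977%, with 4.6% in either direction), with 9 at an unadjusted p below 0.05. Cxcl12 was 5.39-fold higher in depleted D21 (adjusted p = 0.0012) and its second probe 2.52 log2 units higher. Ackr3 was 2.20-fold higher (adjusted p = 0.0085). Ccl11 showed a log2 difference of 5.66 ± 1.30 (adjusted p = 0.032) and Ccr9 of 2.19 ± 0.49 (adjusted p = 0.028), the latter with only 1 of the 3 NP arrays well above background. Both calls were lost without depleted NP rat 5 or 6 or depleted D21 rat 1 or 2. Values of all 4 in each rat are given above, and none overlapped between the groups, as was the case for 17.1% of all genes tested. The fibroblast list was higher in depleted D21 as well, in 5 of 6 genes, and the smooth muscle list in 2 of 5. Their part was not tested. All 4 calls kept their direction within each of the slides that held both groups, which had to be so because their values did not overlap.

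Depleted NP rat 6 stood above both other rats of its group by over 1 log2 unit in 11 of 25 members (4.7% of all genes): Ccl17, Ccl27, Ccl28, Ccl6, Cx3cl1, Cxcl1, Cxcl10, Cxcl16, Cxcl17, Cxcl2 and Cxcl6. Cxcl6 was at 2.10 in this rat and at -0.70 and -1.43 in the others, and Cxcl17, a mucosal ligand, at 1.62 against -2.19 and -1.14. Its neutrophil list summed to 2.77 against -0.99 and -0.38, with 2 of its 8 genes, S100a8 and S100a9, well above background. This sum rests mostly on S100a9, which reached 2.60 in depleted NP preparations, where S100a8 reached -0.65. Mpo, Elane, Csf3r, Fcgr3a, Ngp and Camp were not well above background on any depleted NP array. Depleted D21 rat 4, scanned on another day than rats 1 and 2, was over 1 log2 unit lower than both in 8 of 26 members, where 11.5% of all genes were.

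Ligands and receptors of no comparison complete the family. Ccl2, Ccl24, Ccl28, Ccl6, Ccl7, Cx3cl1, Cxcl14, Cxcl16, Cxcl17 and Cxcl6 were tested in every comparison, at well above background on all 12 arrays, and were called in none. Ccl24 (an eotaxin) ranged from -0.15 to 2.24 over all rats, and Cxcl16, the ligand of Cxcr6, from 0.57 to 2.27. The second probe of Ccl6 was called lower in depleted D21 than depleted NP preparations (-2.40, adjusted p = 0.048) where the brighter was not (-1.97, adjusted p = 0.11). Ccl3 and Ccl4, inflammatory attractants of monocytes and T cells, were not well above background on any depleted array. Ccl3 read -2.38, -3.76 and -2.50 in whole NP and -4.15, -4.41 and -4.01 in whole D21 preparations, with rats 8 and 10 alone well above background. Ccl4 was well above background in 2 rats of each whole group. Ccl20 was above it in depleted NP rat 6 (-2.58) and depleted D21 rat 2 (-4.47). The rest of the members that were not tested (Ccl17, Ccl19, Ccl22, Ccl27, Ccl9, Ccr6, Cxcl11, Cxcr5 and Cxcr6) passed on some arrays of a group but on all 3 of none.

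Genes around the family were described from lists. Of the atypical receptors and platelet chemokines outside the member names and including Ackr3, 2 of 5 tested were higher in whole than depleted D21 preparations and 2 of 4 in NP: Ackr3, and Pf4, a platelet chemokine, by 5.01 and 4.99 on the log2 scale. Of the signalling genes downstream of chemokine receptors 14 were tested in each whole against depleted comparison. Whole preparations were higher for 5 of them and lower for 0 in D21 (median log2 difference 0.17 against -0.06 over all genes tested), and higher for 4 and lower for 1 in NP (0.48 against -0.04). Vav1, which links receptors to Rac, was among these, with a level at least 3.68-fold higher in whole D21 and at least 4.30-fold higher in whole NP preparations. Rgs18, a regulator of G protein signalling in blood cells, was at least 11.6-fold and 10.4-fold higher. Between whole D21 and NP preparations 0 of the 14 were called in either direction. Of the inducers of chemokine genes 2 of 6 tested were lower in whole D21 preparations and 0 higher (median -1.18 against -0.06), namely Il1a (-3.10, adjusted p = 0.048) and Nfkbia (-2.46, adjusted p = 0.007), the latter an inhibitor that NF-kB itself induces. In NP 1 of 5 was lower (Nfkbia, -1.65, adjusted p = 0.023) and 1 higher (Il1b, 1.93). Ifng and Il6 did not pass the filter in any comparison.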

How the data were processed

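RNA of dispersed cervix cells of 12 rats, 3 in each of 4 groups, was hybridised to 1-colour Agilent rat arrays, 1 rat on each. The labels gave each rat's group and number. The authors deposited the spot intensity that Feature Extraction 9.5.3.1 wrote, background-subtracted and detrended, with no normalization between arrays, together with a table of 1 value per probe. The authors' values in that deposited table were found to be the ratio of each intensity to the 75th percentile of its array. Probe positions are those of the files (rn4).

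Each array had 42877 spots other than controls. Outlier spots (294 to 648 on an array) were left out, spots of a probe were averaged, and each array was scaled on the log2 scale to its 75th percentile (290 to 1171 intensity units). Names came through RefSeq accessions without version (53 of 56 member probes matched, and 57.0% of all), and the brightest probe stood for a gene. Groups were compared by lmFit and eBayes (limma 3.58.1 under R 4.3.3) on all 12 arrays with no covariates, two-sided, and p-values were adjusted by Benjamini-Hochberg over all genes tested, also for the interaction. A bound ("at least") sets the bright group's mean log2 level against a mean over the dim group's arrays, which takes from each array its lowest signal well above background, or the dim value where that is higher. The study's test was Welch's, with an unadjusted p limit of 0.01 and a 2-fold change; it is called the methods' t-test. Values below background enter the log2 differences as the software wrote them. The number of arrays limits the precision. Fits were tested on simulated data. Python 3.11.15 with numpy 2.4.6, pandas 2.3.3 and matplotlib 3.10.9 was used for loading, counts and plots. Named in every rat are the members called in at least 1 comparison, with other members by ranges and counts. 1 member, counted in the totals, is not reported here by itself. Members, lists and alternatives were chosen with earlier results of these data known. NP rat 9, depleted NP rat 6 and depleted D21 rat 4 were singled out after their values were seen. The marker lists were macrophage, neutrophil, mast cell, T and NK cell, B cell, epithelial, fibroblast, smooth muscle, endothelial and immediate-early genes. The role lists did not hold Ccl26 and Ccr1l1, which were put with the inflammatory ligands and CC receptors.

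Alternatives were the study's threshold with limma, the methods' t-test, normexp background correction (offset 50), quantile normalization, no background filter, the same filter required of all 12 arrays, averaging a gene's probes, blocks of slide or of scan day, the table's values, and leaving out each rat.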

Additional observations from a re-analysis of the deposited data

Results flagged for a closer look

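Both results below stand out because the change with Mφ depletion differed between D21 and NP rats by the interaction term of limma. Ccr9 had a whole minus depleted log2 difference 4.14 units lower in D21 than in NP (-4.14, adjusted p = 0.013). Cxcl12 had one 1.84 units lower (-1.84, adjusted p = 0.048). The Cxcl12 call was lost under 14 of 21 alternative settings, and the second probe of the gene gave -2.16 (adjusted p = 0.07). Ccr9 entered the test only through depleted D21 preparations. It was well above background on 0 of 3 whole D21, 1 of 3 whole NP and 1 of 3 depleted NP arrays, so the size of its difference rests on readings at background. No formal test for an outlying value was run in groups of 3 rats.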

How the results depend on the processing

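Of 38 calls of single members, each kept its direction under every alternative run, and 0 were lost with the mean of all probes or the table's values, 5 with quantile normalization, 9 with scan day as a block, 12 with no filter on background, 22 with slide as a block, 22 with normexp, and 20 and 30 of 36 with the methods' t-test at its threshold and after adjustment. No paired analysis was possible because the groups compared hold different rats and share no rat number.

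Counts of members called that moved by over 1.5 times were these. For D21 against NP whole preparations, 4 lower became 1 with quantile normalization, no filter, or the filter on every array, and 0 with normexp, slide, or the adjusted t-test (0 to 5 leaving out a rat). For whole against depleted D21 preparations, 8 higher became 4 with the t-test at its threshold, 2 with the filter on every array and 0 with normexp, slide or the adjusted t-test (6 to 9 leaving out a rat), and 4 lower became 2 with normexp, 1 with slide or the t-test at its threshold and 0 with the filter on every array or the adjusted t-test (4 to 5). For NP, 14 higher became 7 and 6 with the t-test at its threshold and adjusted, and 5 with the filter on every array (13 to 17), and 2 lower became 1 with normexp or no filter and 0 with both t-tests, the filter on every array, slide or scan day (1 to 3). For depleted D21 against NP, 4 higher became 2 with normexp or the t-test at its threshold, 1 with no filter and 0 with the adjusted t-test (2 to 5), and 0 lower became 1 with limma at the study's threshold (0 to 1). The 2 interactions became 4 with limma at the study's threshold, 1 with no filter, the filter on every array, slide or scan day, and 0 with normexp (1 to 5). The t-test has no interaction. The filter on every array leaves fewer genes to test; for the other settings the cause was not tested.

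Some differences turned their direction, and none of these was called. Blocking on slide gave -0.77 (Ccl11) and -0.59 (Ccr1) for D21 against NP whole, -2.68 (Ccl11) and -1.57 (Ccl12) for D21 whole against depleted, 0.81 (Cxcl10) for NP whole against depleted, and -0.28 (Ccr1) and 0.084 (Cxcl1) for the interaction. Blocking on scan day gave -0.39 (Ccl11, D21 whole against depleted) and 0.63 (Cxcl10, NP), and normexp gave 0.27 (Cxcr4, depleted D21 against NP) and -0.86 (Ccr1, interaction). Leaving out 1 rat at a time, D21 against NP whole ranged from -0.39 to 1.53 for Ccl11 and from -0.36 to 0.90 for Ccr1, both lowest without NP whole rat 9, and Cxcl10 in NP from -0.63 to 0.27, highest without depleted NP rat 6. The interaction ranged from -0.87 to 0.38 for Ccl21, from -0.050 to 1.24 for Ccr1 and from -1.63 to 0.52 for Ccr2. Low signal over background limits most receptors in depleted preparations to bounds.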
